A study of Mus musculus with 36 samples.

Results

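Small RNA libraries of 2 cell fractions of the mouse small intestine were compared, one sorted as Sox9 Low and the other as Sox9 Negative. The libraries were taken by their labels, 4 of each fraction, and these 8 are among 36 samples of the series and 31 small RNA libraries with values. All 8 came from small intestine of strain C57BL6/2J, and the sort was by flow cytometry. The labels give numbers 1, 2 and 4 of both fractions the word chow and number 3 of both the word HFD, and the libraries of 1 number share a code whose meaning is not stated. They do not say how many animals stood behind a library or whether animals were pooled, so p-values here measure the spread between these libraries, which may be technical. All Sox9 Low libraries carry lane 1 in their labels. Sox9 Negative libraries 1 and 2 carry lane 5 and Sox9 Negative libraries 3 and 4 carry lane 4, so fraction and lane cannot be told apart. The 4 Sox9 High libraries are used only for description. Of these, number 3 carries the word HFD and lane 1, and numbers 1, 2 and 4 carry chow and lane 2.

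Sox9 is a transcription factor of the intestinal crypt. In sorts of mouse intestine by its level, the low fraction is known to be rich in stem cells, the high fraction in enteroendocrine cells, and the fraction without it holds mostly differentiated cells such as the absorptive enterocytes of the villus. A miRNA is a short RNA cut from 1 arm (5p or 3p) of a hairpin, and it pairs with target mRNAs mainly through its seed, bases 2 to 8. Hairpins that lie close together are often cut from 1 primary transcript, and the same mature miRNA can come from hairpins at more than 1 locus. miRNAs with 1 seed share many targets and are grouped as a family. The small RNA table holds no mRNA, so the level of Sox9 itself could not be checked in these libraries. As a check of tissue, the intestinal miRNA miR-192-5p made up 13.1% ± 3.00 (SD, n = 4) of the Sox9 Low total and 10.7% ± 0.703 of the Sox9 Negative total, and the 10 members of the epithelial mir-200 family in the table were each listed in at least 1 of the 8 libraries.

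The sequences below are those on which the comparison turns, as RefSeq gives them with the GRCm38.p6 build, with the seed in capitals. The first set comes from the endocrine mir-7 hairpins, of which miR-7a-1-3p was not higher in Sox9 Low cells, and from a cluster on chromosome 17. let-7a-1-5p, from another cluster and not called, is shown only for comparison with let-7e-5p.
miR-7b-5p: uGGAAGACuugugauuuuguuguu
miR-7a-2-5p: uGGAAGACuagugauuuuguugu
miR-7a-2-3p: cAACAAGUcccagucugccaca
miR-7a-1-3p: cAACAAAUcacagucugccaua
miR-99b-5p: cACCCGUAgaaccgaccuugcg
let-7e-5p: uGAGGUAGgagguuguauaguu
miR-125a-5p: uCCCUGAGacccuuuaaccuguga
let-7a-1-5p: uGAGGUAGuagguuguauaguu
The miR-7a 5p sequence is the same from the Mir7a-1 and Mir7a-2 loci, so its reads cannot be assigned to one of them. The 3p sequences of the 2 loci differ at 3 of 22 positions, A7G, A10C and U21C from Mir7a-1 to Mir7a-2 with positions counted from the 5′ end, and therefore tell the loci apart. Over 23 positions miR-7b-5p differs from miR-7a-5p by A10U alone. let-7e-5p differs from let-7a-5p by U9G alone, just outside the seed they share.

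The second set comes from mir-194, mir-192 and mir-215, which share 2 loci and were mostly lower in Sox9 Low cells, and from the miRNAs with the seed of miR-17.
miR-215-5p: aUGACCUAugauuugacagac
miR-192-5p: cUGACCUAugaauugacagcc
miR-194-1-5p: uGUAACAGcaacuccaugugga
miR-194-1-3p: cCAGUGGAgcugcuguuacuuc
miR-194-2-3p: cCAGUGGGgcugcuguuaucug
miR-106a-5p: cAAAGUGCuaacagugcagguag
miR-20b-5p: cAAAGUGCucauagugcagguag
miR-17-5p: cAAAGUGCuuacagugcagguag
miR-192-5p and miR-215-5p share their seed and differ at 3 of 21 positions, C1A, A12U and C20A from miR-192-5p to miR-215-5p. The 5p sequence of mir-194 is identical from both of its loci, while the 3p sequences differ at 4 of 22 positions, so only the 3p arm tells these loci apart. miR-106a-5p differs from miR-17-5p by A10U and from miR-20b-5p at 2 positions, A10C and C12U.

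The values are the authors' normalised values, which are read counts divided by 1 factor per library. By the step between values, the listed entries summed to 1744418 to 4922437 reads in Sox9 Low libraries and to 2241831 to 6474637 in Sox9 Negative libraries. These sums leave out entries that are not listed, and a sequence listed for more than 1 locus may count more than once. Nothing under 10 reads is listed, which corresponds to a value of 6.07 to 21.0 in the Sox9 Low libraries and 10.0 to 23.3 in the Sox9 Negative libraries, so an entry at 0 may hold up to 9 reads. Values under 30 were therefore raised to 30 before the test, and folds against a group at or under that value are lower bounds. A group raised to 30 throughout adds no spread to the SE or p-value. Between libraries of 1 fraction, log2 values correlated at 0.926 to 0.988 within Sox9 Low and at 0.933 to 0.988 within Sox9 Negative. Of the miRNAs named here, Sox9 Low library 3, which carries the HFD label, stood apart from the other 3 in 7. Number 3 was therefore also left out of both fractions, which gave 196 called entries against 200 with it.

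The 2 fractions differed in 200 of 441 tested entries (45.4%), by limma with Benjamini-Hochberg adjusted p under 0.05 and a log2 fold change of at least 1 in size. Of these, 86 (19.5%) were higher and 114 (25.9%) lower in Sox9 Low cells. Both directions fell unevenly on the kinds of entry. Among 216 annotated miRNAs 58 were higher (26.9%) and 40 lower (18.5%), while among 225 entries whose ends are shifted from the annotation, the isomiRs, 28 were higher (12.4%) and 74 lower (32.9%). In 221 entries (50.1%) the 4 values of one fraction did not overlap those of the other.

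The balance of directions depends on the scale. The entries of mir-215, mir-192 and mir-194, with their isomiRs, made up 21.1% ± 2.66 of Sox9 Low totals and 72.6% ± 0.767 of Sox9 Negative totals (SD, n = 4 each). This set is called the mir-192 group here, after its loci, since mir-194 has another seed. On the deposited scale 43.0% of the called entries were higher in Sox9 Low cells. With values scaled to library totals 180 entries were higher and 47 lower (79.3% higher), and the median log2 fold change of entries tested on both scales moved up by 0.96. With totals taken without that group, 58 were higher and 141 lower (29.1% higher), and this median moved by -0.47. With median-ratio scaling 99 were higher and 104 lower (48.8% higher), and the median moved by 0.11. No entry called on the deposited scale changed sign in any of these, but hardly any could have. A call needs a size of at least 1, and a scaling moves entries well above 30 by about the same amount, here about 1 or less. The median log2 fold change of all 441 entries was -0.21 on the deposited scale, to which every fold change below refers unless another scale is named.

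**Figure D1:**
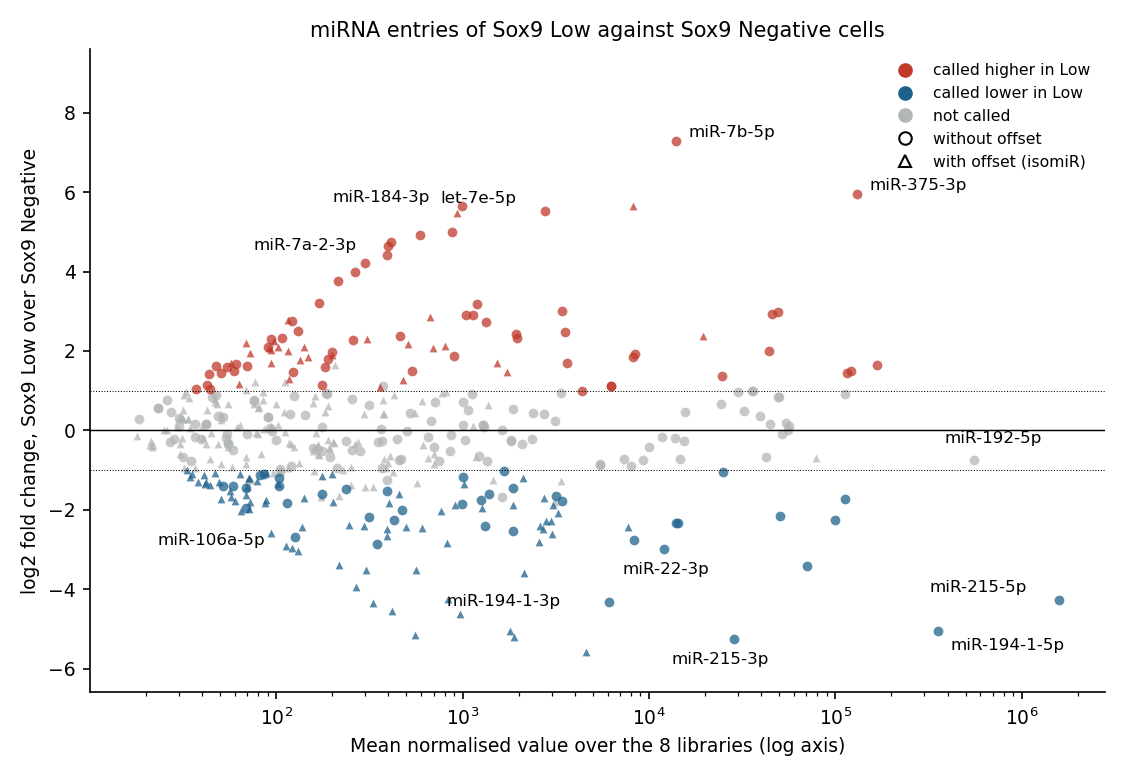
Each point is 1 of the 441 tested entries, with its mean normalised value over the 8 libraries on a log x axis and its log2 fold change of Sox9 Low over Sox9 Negative on the y axis; circles are annotated miRNAs, triangles isomiRs, and dotted lines mark a log2 fold change of 1 in either direction. miR-7b-5p lies highest at 7.29, and miR-215-5p, the most abundant entry, lies at -4.27.

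Several neural and endocrine miRNAs were higher in Sox9 Low cells, led by miR-7b-5p. miR-7b-5p, from a family known for its role in endocrine cells of the gut and pancreas, was at 22520, 20095, 26611 and 41968 in Sox9 Low libraries 1 to 4 and at 142.8, 236.6, 214.6 and 115.1 in the Sox9 Negative libraries. Every Sox9 Low value was thus far above every Sox9 Negative value. The log2 fold change was 7.29 (SE 0.33, limma adjusted p = 1.77e-07), a 157-fold difference. miR-375-3p, which is abundant in pancreatic islets and enteroendocrine cells, was at 166331, 107132, 528850 and 232039 in Sox9 Low and at 2964, 5323, 3030 and 3190 in Sox9 Negative cells. Its groups did not overlap either, although Sox9 Low library 3 was more than 2-fold above the next. The log2 fold change was 5.94 (SE 0.45, limma adjusted p = 2.44e-06), and 5.44 without number 3. The level of miR-375-3p is not particular to Sox9 Low cells. Its mean was 3627 in Sox9 Negative cells and ran from 74602 in Lgr5 High to 303242 in Sox9 High cells over the other sorted populations of the series.

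Several of these miRNAs were not listed at all in the Sox9 Negative libraries. miR-184-3p, a miRNA of neural and islet cells, was at 730, 899, 4582 and 1718 in Sox9 Low cells and at 0 in every Sox9 Negative library, a difference of at least 50.3-fold. miR-1224-5p was at 502, 523, 5410 and 613 in Sox9 Low cells and also at 0 in every Sox9 Negative library. Sox9 Low library 3 again held the highest value of both. The log2 fold change of miR-1224-5p was 5.01 (SE 0.69, limma adjusted p = 0.000178) and 4.18 without number 3. miR-132-3p, a miRNA induced by the cAMP-responsive factor CREB in neurons, was at 297, 410, 572 and 395 against 22.1, 0, 0 and 24, a difference of at least 13.6-fold (log2 3.76, SE 0.30). Its partner on the same transcript, miR-212-3p, was low in Sox9 Low cells, at 42.8 to 69.2, and listed at 0 in all Sox9 Negative libraries.

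Of the 23 endocrine and neural entries in the table, 7 were at 0 in all 8 libraries, 14 passed the filter on low values, and 9 of these were under 30 in every Sox9 Negative library. Those 9 passed through Sox9 Low cells alone and could only come out higher, so a count or median over the 14 supports nothing. Of the other 5, 4 were called higher and 0 lower, and both miR-7a 5p entries among them have the same sequence. Over the 14 tested, the 4 members that were not called were miR-7a-1-3p, miR-212-3p and the 2 miR-129-5p entries. No tested member was called lower on either scale of library totals. The list was drawn up with results of these libraries already known, so its direction is no independent evidence.

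In all, 15 of the 216 tested annotated miRNAs were listed in Sox9 Low cells and at 0 in every Sox9 Negative library. No tested miRNA was at 0 in all Sox9 Low libraries. The 15 passed the filter through Sox9 Low cells alone and could only come out higher, so their number is a description. miR-212-3p, miR-296-3p and the miR-129-5p entries, which have the same sequence, were among them and not called. Beside those already named, the group held miR-92b-3p, which shares the seed of miR-92a-3p, at 646, 648, 1348 and 555 in Sox9 Low cells. It also held miR-139-3p at 438, 399, 968 and 306. The log2 fold changes were at least 4.64 (SE 0.35) and 3.99 (SE 0.38). In both, library 3 was the highest of the 4 Sox9 Low libraries. miR-342-5p was close to this pattern, at 506, 629, 763 and 425 against 31.0, 23.7, 0 and 18, a difference of at least 18.7-fold.

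**Figure D2:**
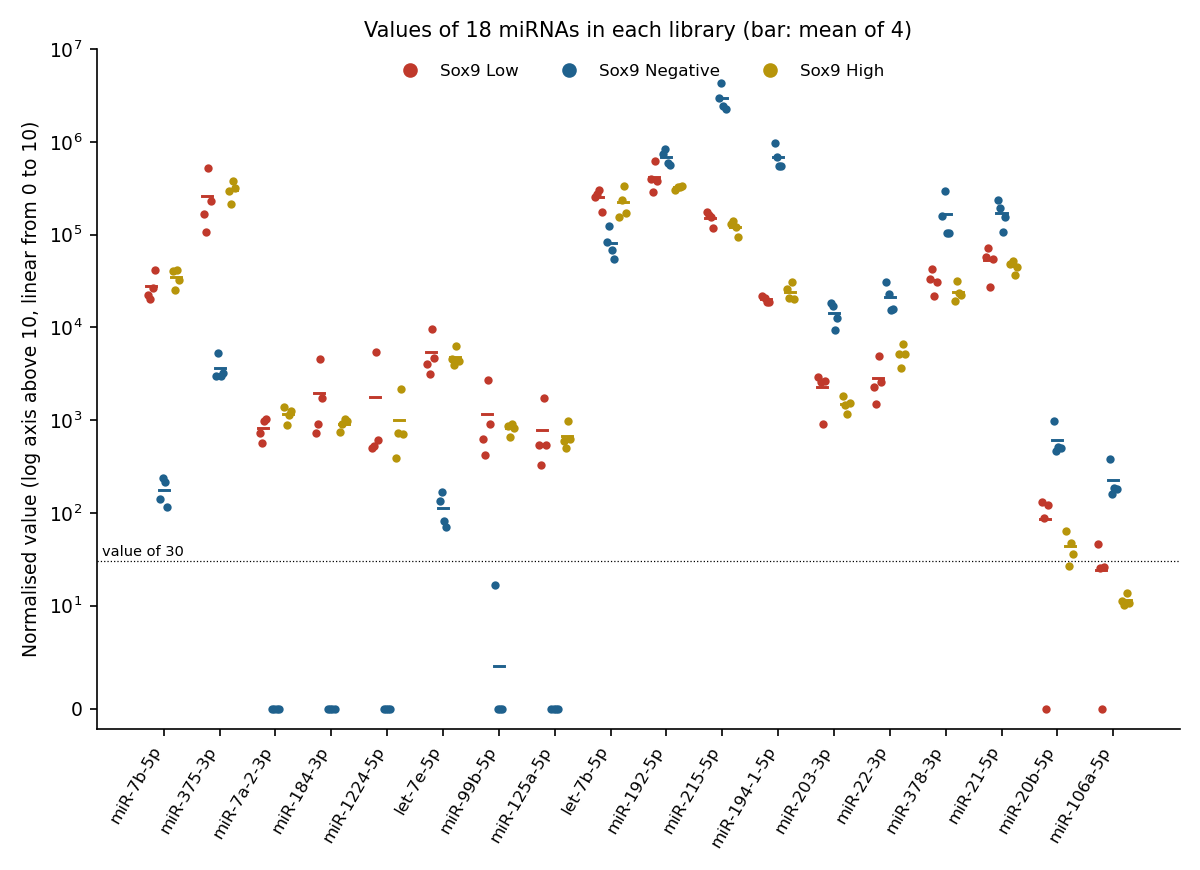
Points are the normalised values of 18 miRNAs in each of the 4 Sox9 Low, 4 Sox9 Negative and 4 Sox9 High libraries, with short bars for the means, on an axis that is logarithmic above 10 and linear from 0 to 10. miR-125a-5p, miR-184-3p, miR-1224-5p and miR-7a-2-3p sit at 0 in all Sox9 Negative libraries, while miR-194-1-5p and miR-215-5p are higher in every Sox9 Negative library than in any Sox9 Low library.

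The let-7e cluster was higher in Sox9 Low cells. It lies at chr17:17830194-17830876 (+, GRCm38.p6) and carries Mir99b, Mirlet7e and Mir125a. let-7e-5p was at 4057, 3177, 9728 and 4667 in Sox9 Low cells and at 134, 169, 81.6 and 70.1 in Sox9 Negative cells. The groups were separated by more than 10-fold, with a log2 fold change of 5.53 (SE 0.42, limma adjusted p = 2.49e-06). miR-99b-5p was at 625, 424, 2744 and 919 against 16.6, 0, 0 and 0, and miR-125a-5p at 536, 327, 1731 and 541 against 0 in every Sox9 Negative library. Their log2 fold changes were at least 4.91 (SE 0.52) and 4.41 (SE 0.47). miR-125a-3p, from the other arm of the last hairpin, was the lowest of the 4 in Sox9 Low cells and at 0 in every Sox9 Negative library, with a log2 fold change of at least 1.41. miR-125a-3p was not called with totals taken without the mir-192 group (0.74) or with a floor of 100 (0.16). All 4 tested entries of the cluster were called higher on the deposited scale, and Sox9 Low library 3 held the highest value of each. Of the 4, the 3 entries of Mir99b and Mir125a were under 30 in every Sox9 Negative library and could only come out higher.

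The miRNAs with the let-7 seed differed among themselves. Of the 9 distinct sequences with this seed, let-7e-5p included, 4 were called higher, 5 were not called and 0 were lower. Over all 15 tested let-7 and mir-98 entries, which include 3p arms with other seeds, 6 were called higher (40%, against 26.9% of annotated miRNAs). The median log2 fold change of the 15 was 0.99. let-7b-5p, the most abundant of them, was at 255690, 276846, 305936 and 174456 in Sox9 Low cells and at 82450, 123733, 68282 and 54843 in Sox9 Negative cells, without overlap. Its log2 fold change was 1.66 (SE 0.31, limma adjusted p = 0.00112). let-7c-2-5p was 1.51 higher, and 0.99 and not called with totals taken without the mir-192 group. let-7c-1-5p, also among the entries called higher, has the same sequence. let-7d-3p, an arm with another seed, was 2.91 higher (SE 0.39). let-7g-5p, at -0.66 (SE 0.41), let-7f-2-5p at 0.00 and let-7i-5p at 0.19 did not pass the test. Summed over the 9 distinct sequences with the let-7 seed, values were 671626 ± 77290 in Sox9 Low and 358117 ± 136457 in Sox9 Negative cells, a ratio of 1.88. The number of let-7 entries called higher was 10 with library totals, and 3 with totals taken without the mir-192 group, where 1 was called lower. Over all entries, isomiRs included, 180 of 443 and 58 of 394 were higher on these scales.

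The mir-192 group, known for its high level in intestinal epithelium, was lower in Sox9 Low cells, apart from 2 entries that were not called. miR-215-5p was at 173857, 161172, 153874 and 119171 in Sox9 Low libraries against 2999108, 4290081, 2428393 and 2295304 in the Sox9 Negative ones, a log2 fold change of -4.27 (SE 0.28, limma adjusted p = 9.74e-07). miR-194-1-5p was at 21586, 20750, 19035 and 18960 against 977865, 681126, 554267 and 549888, a log2 fold change of -5.07 (SE 0.25, limma adjusted p = 1.77e-07). Both were lower in every Sox9 Low library than in any Sox9 Negative library, by more than 10-fold. The less used arms followed, with log2 fold changes of -5.26 (SE 0.29) for miR-215-3p and -4.32 (SE 0.35) for miR-194-1-3p. Of the 8 members of the group, all tested, 6 were called lower (75%, against 18.5% of annotated miRNAs) and 0 higher, with a median of -3.84. With library totals 5 were called lower, against 47 of all 443 entries, isomiRs included.

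The 2 loci of this group differed in how far they moved. Mir194-1 and Mir215 lie together at chr1:185313325-185313667 (+, GRCm38.p6), and their 4 entries had log2 fold changes between -5.26 and -4.27. Mir194-2 and Mir192 lie together at chr19:6264658-6264921 (+, GRCm38.p6). From this second locus miR-192-5p was at 395185, 288137, 616316 and 380314 in Sox9 Low and at 748453, 840446, 598953 and 559359 in Sox9 Negative cells. These groups overlapped, and the log2 fold change of -0.75 (SE 0.29, limma adjusted p = 0.0530) did not pass the test. With library totals it turned to 0.27, with totals taken without the group it was -1.26 and passed, and without number 3 it was -1.01 and passed. miR-192-3p was called lower at -1.39 (SE 0.30), at 40.4 to 64.9 against 112 to 199.3.

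A ratio within 1 library does not depend on how libraries are scaled. The ratio of miR-215-5p to miR-192-5p was 0.440, 0.559, 0.250 and 0.313 in Sox9 Low libraries and 4.01, 5.10, 4.05 and 4.10 in Sox9 Negative libraries. For the 3p arms of mir-194, which tell the loci apart, the ratio of miR-194-1-3p to miR-194-2-3p was 0.212, 0.236, 0.560 and 0.190 against 5.93, 3.63, 5.06 and 4.31. In both pairs the entry of the chromosome 1 locus was the lower of the 2 in every Sox9 Low library and the higher in every Sox9 Negative library. miR-194-2-3p itself had a log2 fold change of -0.21 (SE 0.30). miR-194-2-5p, at -3.40, shares its sequence with miR-194-1-5p, so its reads may come from either locus. These pairs, and those in the next 2 paragraphs, were chosen after their values were seen and are given without a test.

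The 2 mir-7a loci also parted. miR-7a-2-3p was at 729, 561, 989 and 1024 in Sox9 Low libraries and at 0 in every Sox9 Negative library, while miR-7a-1-3p was at 89.8, 104, 65.0 and 120 against 120, 96.2, 88.6 and 73.1. The first was called higher, with a log2 fold change of at least 4.74 (SE 0.31, limma adjusted p = 1.07e-06), and the second had a log2 fold change of -0.01 (SE 0.31). miR-7a-2-3p passed the filter through Sox9 Low cells alone and could only come out higher. Its Sox9 Negative values, all raised to 30, add no spread to its SE and p-value. With values under 30 set to 30, the ratio of the first to the second was 5.41 to 15.2 in Sox9 Low libraries and at most 0.251 to 0.410 in Sox9 Negative libraries. The shared 5p sequence, counted as miR-7a-1-5p, was at 67958 to 133527 in Sox9 Low libraries against 7045 to 19548, and its log2 fold change was 2.98 (SE 0.36). It was thus still abundant in Sox9 Negative cells, where the 3p arm of Mir7a-2 was not listed.

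Other neighbours on 1 strand differed in the same way. miR-191-5p was 2.01 higher in log2 (SE 0.31), and its neighbour miR-425-5p was at 0.23 (SE 0.26). The ratio of miR-191-5p to miR-425-5p was 14.1 to 26.0 in Sox9 Low libraries against 5.77 to 6.29. miR-222-3p, which shares its seed with miR-221-3p, was called higher at 1.5 (SE 0.36), and miR-221-3p was at -0.78 (SE 0.43). The ratio of miR-222-3p to miR-221-3p was 0.570 to 1.2 against 0.150 to 0.192, again without overlap.

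Among all tested miRNAs with a RefSeq position, 23 groups of hairpins on 1 strand within 10 kb had at least 2 tested entries. In 10 of them the called entries were all higher, in 5 all lower, in 2 they went both ways and in 6 none was called. Of all annotated miRNAs 26.9% were higher and 18.5% lower. Mir181a-1 with Mir181b-1 and Mir181a-2 with Mir181b-2 counted as higher through miR-181a-5p alone, whose sequence is the same from both loci. Some groups rest on 1 called entry, such as Mir212 with Mir132. Mir181d and Mir181c, at chr8:84178759-84178945 (-, GRCm38.p6), had all 3 entries called higher. miR-181c-5p was at 4936, 4452, 10139 and 4720 in Sox9 Low and at 1010, 1052, 1089 and 926 in Sox9 Negative cells, 2.48 higher in log2 (SE 0.30, limma adjusted p = 8.34e-05). miR-181d-5p was 1.69 higher (SE 0.30). mir-181 is a family best known from lymphocytes and vascular cells, and 5 of its 8 tested entries were called higher (62.5%, against 26.9% of annotated miRNAs). miR-181a-1-5p and miR-181a-2-5p, both among the 5, have the same sequence. With library totals 7 were called higher, against 180 of all 443 entries, isomiRs included. With totals taken without the mir-192 group 3 were, against 58 of 394, isomiRs included.

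**Figure D3:**
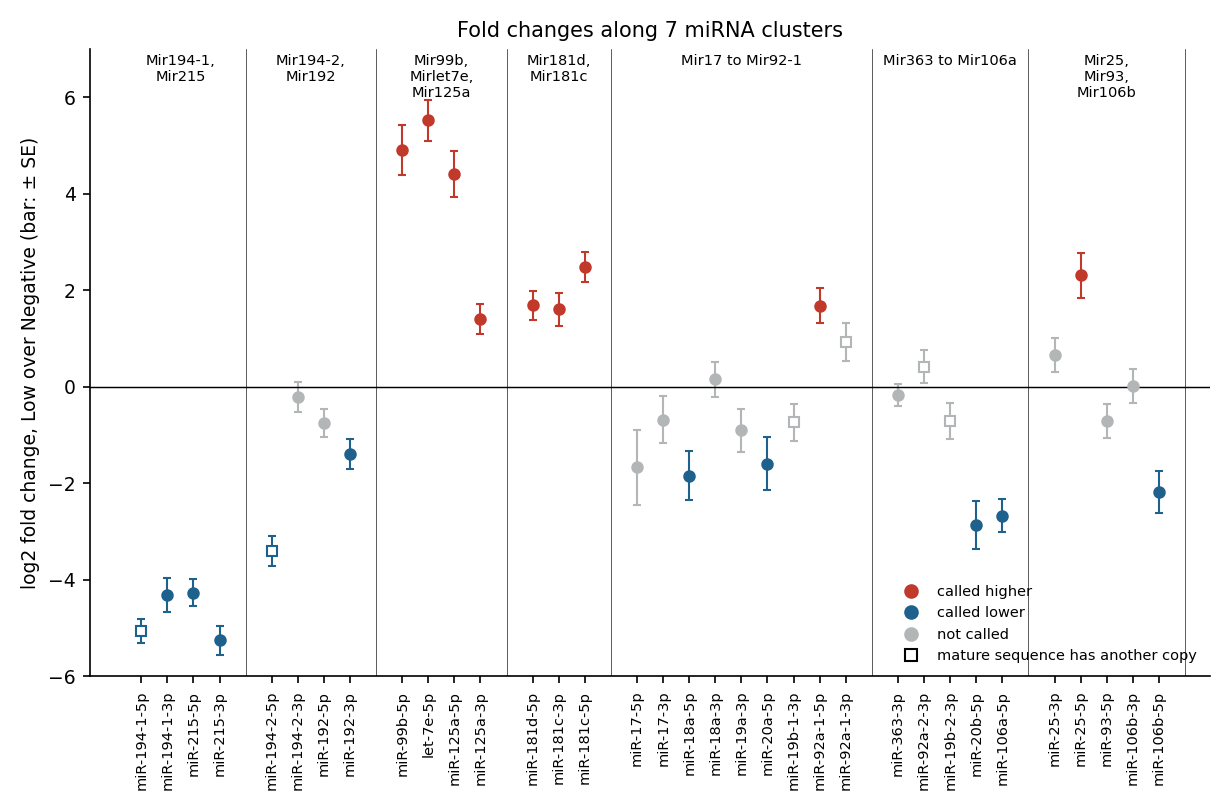
Points are log2 fold changes of Sox9 Low over Sox9 Negative with bars of 1 SE for the entries of 7 clusters, in genome order within each; open squares have the same mature sequence as an entry of another locus. The Mir194-1 and Mir215 entries lie between -5.26 and -4.27, those of Mir99b, Mirlet7e and Mir125a between 1.41 and 5.53, and the mir-17 clusters hold members on both sides of 0.

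The clusters around mir-17, known for a role in proliferation, held calls in both directions. Of 19 tested entries from the 3 clusters 5 (26.3%) were called lower and 2 (10.5%) higher, with a median log2 fold change of -0.71. Among all annotated miRNAs 18.5% were lower and 26.9% higher, and the difference from these shares was not tested. Of the 6 distinct sequences with the seed of miR-17, 4 were called lower, and miR-17-5p (-1.67) and miR-93-5p (-0.71) were not called. The fifth lower call was miR-18a-5p (-1.84), which has another seed. miR-20b-5p was at 131, 87.1, 0 and 123 in Sox9 Low and at 971, 467, 511 and 503 in Sox9 Negative cells, at least 7.25-fold lower (SE 0.50 in log2, limma adjusted p = 0.000791). miR-106a-5p, from the same cluster on chromosome X, was at 46.1, 25.3, 0 and 25.8 against 380.8, 159.3, 186.6 and 182.2, at least 6.38-fold lower (SE 0.34 in log2). In both, Sox9 Low library 3 was at 0 and Sox9 Negative library 1 the highest. miR-106b-5p had a log2 fold change of -2.18 (SE 0.44), and with library totals it was -1.17 and not called.

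miR-92a-1-3p, which carries another seed, was not called. This miRNA, the most abundant entry of these clusters, was at 188243, 214040, 78416 and 110647 in Sox9 Low and at 75400, 125719, 50324 and 56955 in Sox9 Negative cells. The groups overlapped and the log2 fold change of 0.92 (SE 0.39) was not called, while it was 1.19 and called without Sox9 Negative replicate 2 and likewise 1.19 without Sox9 Low replicate 3. Both entries called higher were minor arms, miR-25-5p at 2.31 (SE 0.46) and miR-92a-1-5p at 1.68 (SE 0.37), each a lower bound. Both were under 30 in every Sox9 Negative library, and with a floor of 100 neither was called, at 0.79 and 0.26. With library totals the clusters had 6 entries called higher and 2 lower, and with totals taken without the mir-192 group 1 and 9, so the direction of the whole group turns with the scale.

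Further miRNAs were lower in Sox9 Low cells. miR-22-3p was at 2280, 1508, 4978 and 2594 in Sox9 Low and at 30709, 22851, 15446 and 15663 in Sox9 Negative cells (log2 fold change -2.98, SE 0.38, limma adjusted p = 0.000118). miR-203-3p, known to restrain proliferation in the epidermis, was at 2948, 2599, 899 and 2639 against 18529, 17176, 9336 and 12697 (-2.75, SE 0.41). miR-378-3p, encoded within the gene of the metabolic coactivator Ppargc1b, was at 33043, 42614, 22043 and 31062 against 158610, 297680, 105547 and 103755 (-2.27, SE 0.37). None of these 3 overlapped between the fractions. miR-21-5p, one of the most abundant miRNAs of the table, had means of 53042 ± 18789 and 173360 ± 55594 (-1.73, SE 0.36), but with library totals the difference was -0.72 and not called. miR-103-2-3p had a log2 fold change of -2.34 (SE 0.31), miR-5109 of -2.54 (SE 0.37) and miR-802-5p of -2.40 (SE 0.50), and with library totals miR-802-5p was at -1.39 and no longer called.

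The 3p miRNAs of mir-148 and mir-152 share a seed, and 1 of them was called higher, 1 lower and 1 not called. miR-148a-3p, the most abundant, was at 37424, 36838, 38645 and 34246 in Sox9 Low and at 32430, 39456, 19776 and 19124 in Sox9 Negative cells, which overlapped (0.48, SE 0.28, not called). miR-152-3p was at 310, 235, 123.7 and 76.1 in Sox9 Low and at 66.4, 48.9, 65.3 and 54.1 in Sox9 Negative cells, and was called higher at 1.48 (SE 0.44, limma adjusted p = 0.0156). It was 1.45 with Sox9 Negative libraries of lane 4 alone and 1.51 with those of lane 5 alone, and passed the test in neither. It was also not called with totals taken without the mir-192 group (0.96) or with a floor of 100 (0.79). miR-148b-3p was at 1489, 1318, 1448 and 1761 against 6244, 5347, 4045 and 3691, and was called lower at -1.66 (SE 0.26). The 5p arms have another seed, and of these miR-148a-5p was called higher at 1.79 (SE 0.43) and miR-148b-5p lower at -1.13 (SE 0.31), which was -0.96 and not called without Sox9 Low replicate 3, and not called with a floor of 100 (-0.19). With library totals neither miR-148b entry was called, at -0.65 and -0.11.

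Calls in 3 further families did not hold when single libraries were left out. Of the mir-200 entries, a family that maintains epithelial identity, 1 of 8 tested was called, miR-200a-5p at -1.03 (SE 0.29). It was no longer called without Sox9 Low replicate 2 (-0.999) or 4 (-0.93), or without Sox9 Negative replicate 1 (-0.93) or 2 (-0.89), and library totals gave 4 entries higher and 0 lower in this family. miR-183-5p, of the sensory-cell cluster mir-183, was called higher at 1.004 (SE 0.32). It was not called without Sox9 Low replicate 3 (0.76) or 4 (0.96), or without Sox9 Negative replicate 3 (0.97) or 4 (0.89), nor with totals taken without the mir-192 group (0.49). miR-34a-5p, a target of p53, was called lower at -1.53 (SE 0.52), but not without Sox9 Low replicate 3 (-1.15) or 4 (-1.32) or Sox9 Negative replicate 1 (-1.30) or 2 (-1.51), nor with library totals (-0.52).

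For the mir-30 entries 1 of 12 tested was called, miR-30e-3p at -1.45 (SE 0.39), which was -0.89 and not called with Sox9 Negative libraries of lane 4 alone and -0.44 and not called with library totals. Of 6 tested mir-23, mir-24 and mir-27 entries none was called by limma on the deposited scale, where miR-27b-3p had the highest mean, at -0.17 (SE 0.26). miR-27b-3p turned to 0.84 with library totals, and 4 of 7 tested entries of its list were then called higher. With library totals 3 mir-30 entries were called higher and none lower. No mir-29 entry passed the filter on low values.

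**Figure D4:**
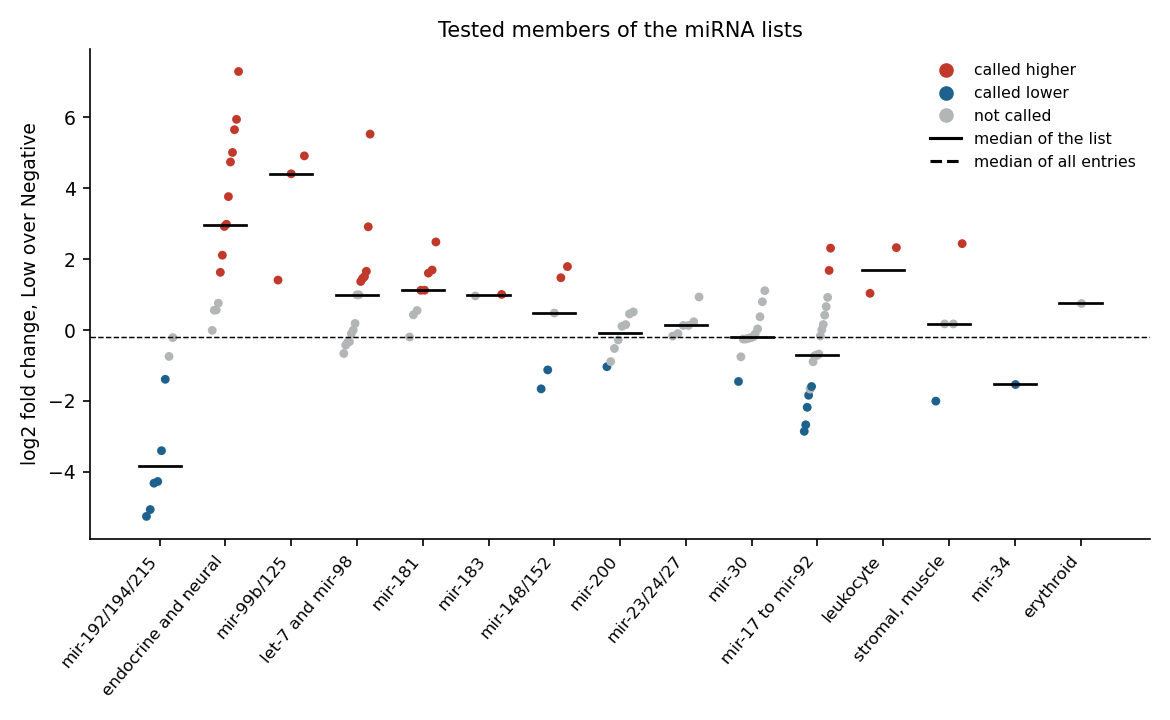
Points are the log2 fold changes of the tested members of 15 miRNA lists, coloured by their call, with a solid bar for the median of each list and a dashed line for the median of all 441 entries, -0.21. The lowest median is -3.84, for the mir-192 group. All 3 members of mir-99b and mir-125 and 9 of 14 endocrine and neural members were under 30 in every Sox9 Negative library, so they lie above 0 by the filter.

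Markers of other cells that a sort of epithelium can hold were few but not absent. Of 8 leukocyte entries 5 were at 0 in all 8 libraries, among them miR-142-3p, miR-223-3p and miR-150-5p, and the summed level ran from 1534 to 5848 in the Sox9 Low libraries, against 247 to 1014. Nearly all of it was miR-146a-5p, at 2744, 3080, 1497 and 5737 against 587, 798, 247 and 996, which was called higher at 2.32 (SE 0.50). miR-155-5p was also called, at a lower bound of 1.04 (SE 0.28) that the filter allowed only upwards, with values of 37.7 to 95.1 in Sox9 Low cells, but not without Sox9 Low replicate 1 (0.92) or 4 (0.83), nor with Sox9 Negative libraries of a single lane or with all 8 sorted populations in 1 limma fit (adjusted p = 0.35). Both tested leukocyte entries were thus higher, while the defining markers miR-142-3p and miR-223-3p were at 0.

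Of 18 stromal and muscle entries 9 were at 0 in all 8 libraries, among them miR-145-5p, miR-214-3p and miR-206-3p, and 4 were tested. miR-10b-5p was called higher, at 2894, 1333, 4226 and 4835 against 513, 621, 450 and 639 (log2 2.44, SE 0.40). miR-143-3p was called lower, at 175, 151.5, 210 and 222 against 798, 937, 600 and 713 (log2 -2.01, SE 0.29), and was at -0.99 and not called with library totals. Summed levels ran from 1571 to 5149 in the Sox9 Low libraries, against 1176 to 1699. The endothelial miR-126-3p was at 0 in all 8 libraries and miR-126-5p reached 119 in Sox9 Low library 3. Of the erythroid entries miR-486-5p was tested and not called (0.76, SE 0.58), but was called higher at 1.67 with library totals, miR-144-3p was at 0 throughout, and miR-451 was listed only in Sox9 Low library 3, at 31.4. The part of such cells in the results was not tested, and in sorted bulk samples fewer cells of a type and less RNA per cell cannot be told apart.

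The 2 arms of a hairpin are made in equal number, so the ratio of their values depends neither on the library scale nor on how much of the hairpin was made. Of 35 hairpins with both arms above 30, the ratio of 5p to 3p differed in 15 (42.9%), with 8 higher (22.9%) and 7 lower (20%) in Sox9 Low cells. For 9 of the 15, which are 4 higher and 5 lower, the hairpin has a single locus in the table. miR-423 had a 5p value of 1.35 times the 3p value in Sox9 Low and 0.320 times in Sox9 Negative cells, so the dominant arm changed. The log2 difference of miR-423 was 2.07 (SE 0.29, limma adjusted p = 0.000106), and log2 ratios were 0.10, 0.38, 0.90 and 0.34 in Sox9 Low and -1.67, -1.47, -1.44 and -2.0 in Sox9 Negative libraries. Every Sox9 Low library was above 0 and every Sox9 Negative library below.

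The 5p share was lower in Sox9 Low cells for miR-106b, with a log2 difference of -2.19 (SE 0.42), for miR-151, with -2.10 (SE 0.41), and for let-7d, with -1.54 (SE 0.38). In the first, the 5p arm was called lower and the 3p arm, miR-106b-3p, was at 0.01 (SE 0.35). miR-148a had a log2 difference of 1.31 (SE 0.34), with the 3p arm dominant in both fractions. miR-21 was called at -1.47 (SE 0.48), but not without Sox9 Low replicate 1 (-1.27) or 3 (-1.06), or without Sox9 Negative replicate 1 (-1.38). The largest differences, miR-7a-1 at 2.99 (SE 0.36) and miR-194-2 at -3.19 (SE 0.40), are in hairpins whose 5p sequence also comes from a second locus, so these ratios combine loci. The same holds for let-7c-2 at 1.56 (SE 0.43) and let-7a-1 at 1.24 (SE 0.43), and let-7a-1 was not called without Sox9 Negative replicate 1 (1.16) or 4 (1.01). The 3p sequences of let-7c-2 and let-7a-1 are also identical, with values of 0 to 91.0 in Sox9 Low libraries. Both ratios thus have nearly the same denominator and are not separate arm changes.

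**Figure D5:**
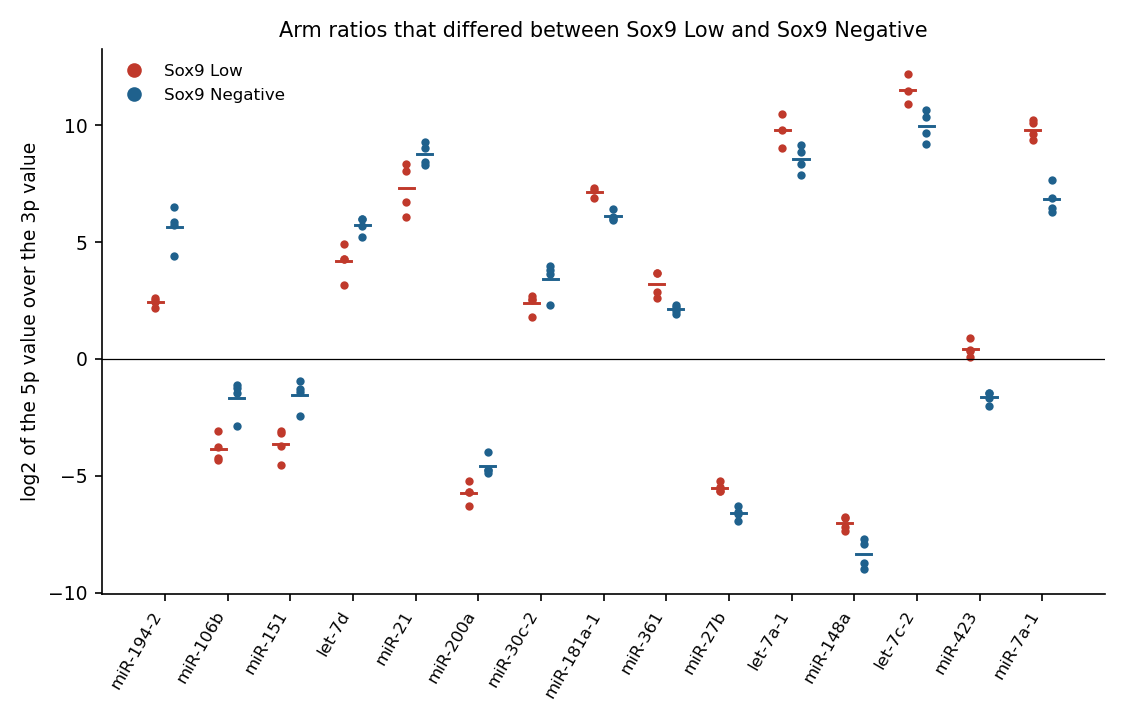
Points are the log2 ratios of the 5p to the 3p value in each Sox9 Low and Sox9 Negative library, with bars for means, for the 15 hairpins whose ratio differed. For miR-423 the Sox9 Low libraries lie at 0.10 to 0.90 and the Sox9 Negative libraries at -2.0 to -1.44.

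Ratios of isomiRs to their annotated entry differed mainly for the entries named miR-5105. By the mean log2 ratio, its offset +6 was 12.3 times the annotated entry in Sox9 Negative and 1.68 times in Sox9 Low cells. Whether reads with such shifts come from a miRNA hairpin was not tested. Of 139 ratios tested 14 were called (10.1%), and 13 of these were lower (9.35%) and 1 higher (0.719%) in Sox9 Low cells. Of the 13, 9 were isomiRs of miR-5105, led by the one with offset +7 at -3.14 (SE 0.62, limma adjusted p = 0.0148), 1 of miR-5115 and 3 of let-7b and let-7c with offset +5. The one higher was miR-215-5p with offset +5, at 1.16 (SE 0.31). Without Sox9 Low replicate 1, 2 or 3 only 4 of the 14 could still be tested, since the rest then had too few values above 30. Of these 4, none was called without replicate 1 or 2 and 3 were called without replicate 3. Among values above 100 only 1 of the 14 could be tested, and it was not called. All 14 could be tested without Sox9 Negative replicate 4, where 7 were called, and without Sox9 Low replicate 4, where 8 were.

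As a description, the third fraction of the sort, Sox9 High, was set beside the 52 miRNAs named by rule. Its mean lay between those of Sox9 Low and Sox9 Negative cells for 26, beyond Sox9 Low for 21 and beyond Sox9 Negative for 5. miR-7b-5p was at 25255 to 41246 and let-7e-5p at 3974 to 6288 in Sox9 High libraries, in the range of Sox9 Low. miR-106a-5p was at 10.2 to 13.7 and miR-143-3p at 41.2 to 89.8, both below the Sox9 Low means. miR-672-5p, singled out after its values were seen, was at 752 to 2053 in Sox9 High against 66.8 to 132.1 in Sox9 Low libraries and at 0 in Sox9 Negative libraries. Sox9 High library 3, with the HFD label, held the highest Sox9 High value of miR-7b-5p, let-7e-5p and miR-672-5p.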

How the data were processed

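Per the labels, small RNA libraries were made with the TriLink CleanTag kit from cells sorted by flow cytometry. The deposited table gives a normalised signal, in which the authors divided the reads of each library by 1 factor, as shown by values that are multiples of 1 step within 0.001 reads. The submitters' processing notes name build mm9, while no source used here names the aligner, the counter or the scaling tool. Sequences and positions are from RefSeq for GRCm38.p6, with 174 of 216 tested annotated miRNAs matched to 157 distinct sequences. The table holds 2670 entries, of which 1655 were at 0 in all 8 libraries. A further 3 columns of the table match no sample and were not used.

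Values under 30, the largest value of 10 reads (23.3) rounded up, were raised to 30. Entries above 30 in at least 4 of the 8 libraries were tested with limma 3.58.1 (R 4.3.3) on log2 values with a trend in the prior variance, two-sided and with no covariate. Ratios of arms or isomiRs used values above 30 in at least 3 libraries per fraction, with other ratios left missing. The script was tested on simulated data. Lists and comparisons were chosen with earlier results of these data known. The rule for names took up to 12 called miRNAs per direction with a mean of at least 100, the 10 most abundant, up to 3 per direction in each list and up to 5 per direction for ratios. Alternatives were other scalings, filters and floors, each library left out, the shared number as a block, and single lanes, the last chosen after seeing the data.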

Additional observations from a re-analysis of the deposited data

Results flagged for a closer look

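In 10 of 92 groups of 4 values checked for the named miRNAs, 1 library stood so far from the other 3 that Dixon's test at the 95% level marked it. Chance alone marks about 1 in 20 groups only where values are normal and groups independent. The groups here share their libraries, and some are arms of the same hairpin, so the number marked is a description. Sox9 Low replicate 3, the library with the HFD label, was marked in 7. It was the highest for miR-1224-5p (5410), miR-92b-3p (1348), miR-125a-5p (1731), miR-125a-3p (157) and miR-181c-5p (10139), and the lowest for miR-203-3p (899) and miR-181d-5p (4180). Its listed entries also summed to the fewest reads of the 4 Sox9 Low libraries, 1744418 by the step between values. Diet label, depth and library cannot be told apart here, as each fraction holds 1 library with that label. In Sox9 Negative cells replicate 1 was the highest for miR-20b-5p (971) and miR-106a-5p (381), and replicate 2 for miR-375-3p (5323). Each of these 10 miRNAs kept its direction and its call without the library that was marked.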

How the results depend on the processing

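No called entry changed sign in any of the alternatives that tested it. For the other scalings this was nearly fixed in advance, since a call needs a size of at least 1 and a scaling moves most entries by about the same amount. The 200 calls became 131 of 381 entries with any value above 100 when the floor was 100 (56 higher, 75 lower; 56 and 77 when only the 286 entries above 100 in at least 4 libraries were tested), 102 of 216 for annotated miRNAs alone (59 higher, 43 lower), 227 with library totals (180 higher, 47 lower) and 187 to 221 with 1 library left out (76 to 101 higher, 103 to 120 lower). With Sox9 Negative libraries of lane 4 alone there were 201 calls, and of lane 5 alone 172. With the shared number as a replicate block there were 210 calls, which include all 200, 17 isomiR and 16 arm ratios, and the block changed no call of a named miRNA. Deviations of same-numbered libraries correlated at 0.24, 0.15, 0.48 and -0.20, and number 4 of Sox9 Low correlated best with number 1 of Sox9 Negative, so the numbers were not taken to pair the libraries. The 14 isomiR ratios became 0 for values above 100, where 1 of the 14 could be tested, and 2 without number 3, where 4 could. They became 0 to 21 with 1 library left out, where 4 or all 14 could. For values above 100 only 8 of the 15 called arm ratios could be tested, and all 8 kept their call. With 1 library left out 10 to 17 arm ratios were called. miR-192-5p reversed to 0.27 with library totals, and miR-27b-3p to 0.84 with library totals and 0.15 with lane 4 alone. The causes were not tested. The planned count models edgeR and DESeq2 were not run, because the deposited values are scaled and were not taken as recovered reads, as the table lists nothing under 10 reads. Depth limits the statements on entries at 0, which may hold up to 9 reads.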
